A study of Mus musculus with 2 samples.

Results

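The 37 genes described here encode proteins that copy DNA in S phase, and they were taken by symbol from a named list, each matching 1 row of the 32285 genes in the count matrices. They were followed across the cell types of the testis at 13 days after birth, an age by which the first germ cells have entered meiosis. The libraries were made from C57BL/6 mouse testis, 1 per genotype, by droplet single-cell RNA sequencing (10x 3' chemistry, which counts a molecule by its unique molecular identifier, UMI, at the 3' end of the transcript). The control carried a floxed and a normal copy of Psma7 (Psma7 F/+). In the conditional knockout one copy was floxed, the other deleted, and Cre was expressed from Stra8, a gene of germ cells (Psma7 F/-;Stra8-Cre KI/+). No Cre is named for the control, so the floxed copy is shared by both groups while the deleted copy and the driver are not. Psma7 encodes a subunit of the constitutive proteasome, the protease complex that degrades ubiquitin-tagged proteins, and the series deals with its part in keeping and maturing spermatogonia. The number of animals behind each suspension is not given, and with 1 library per genotype differences are untested and unreplicated. All intervals are exact 95% intervals that cover counting error only.

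Before S phase, CDC6 and CDT1 load the ring of MCM2 to MCM7 onto replication origins, and MCM10, CDC45 and the GINS complex turn it into the active helicase. The primase and DNA polymerases then copy the strands while the clamp PCNA, placed by the RFC complex, holds them on the template. Other proteins supply nucleotides (RRM1, RRM2, TYMS, DUT), join lagging-strand fragments (FEN1, LIG1), protect single strands (RPA2), rebuild chromatin (CHAF1A, CHAF1B, HELLS), process histone mRNA (SLBP) or guard the fork (CLSPN, TIPIN). Many of these genes are known targets of the E2F factors, which act at the passage from G1 to S phase. In the postnatal testis spermatogonia divide by mitosis and copy their DNA a last time just before meiosis, in preleptotene cells, while Sertoli cells, the nurse cells of the tubule, stop dividing around this age.

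The 37 genes lie on 16 chromosomes and all are annotated as protein coding. The stretch before their transcription start was read for 4 kinds of motif, because E2F sites are what such genes are best known to share. Of the 37 genes, 29 matched the RefSeq promoter table (GRCm38.p6, the build also named mm10), with 33 windows of 300 bases, 250 before and 50 after a start. The searched words were the E2F elements TTTCCCGC, TTTCGCGC, TTTGCCGC and TTTGGCGC, the CCAAT box, the GC box GGGCGG and the CHR words TTTGAA and TTCGAA, all on both strands, with overlapping matches counted. An E2F element stood in 39.4% of the member windows and in 2.26% of all 32851 windows of the table. By gene this was 13 of 29, or 44.8%, against 2.6% of 27025 genes. CCAAT was found in 57.6% of member windows against 37.4% of all, GGGCGG in 66.7% against 35.7%, and a CHR word in 18.2% against 19.2%. The windows were not matched for base composition, a match is a description of the letters only, and no match says nothing about the factor. The 250 bases before the start are printed for 4 genes that hold an E2F element there (Mcm5, Mcm6, Cdc6 and Hells) and for Slbp and Rrm2, which hold none in their window and which differed most between genotypes in Sertoli cells and in undifferentiated spermatogonia. Each runs 5' to 3' along the gene's own strand, with E2F elements in capitals.
Mcm5: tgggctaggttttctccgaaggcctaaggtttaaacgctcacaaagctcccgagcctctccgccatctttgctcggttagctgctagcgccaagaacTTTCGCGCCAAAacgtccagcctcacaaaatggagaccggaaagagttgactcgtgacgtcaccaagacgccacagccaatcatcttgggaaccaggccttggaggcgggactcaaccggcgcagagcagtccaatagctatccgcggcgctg
Mcm6: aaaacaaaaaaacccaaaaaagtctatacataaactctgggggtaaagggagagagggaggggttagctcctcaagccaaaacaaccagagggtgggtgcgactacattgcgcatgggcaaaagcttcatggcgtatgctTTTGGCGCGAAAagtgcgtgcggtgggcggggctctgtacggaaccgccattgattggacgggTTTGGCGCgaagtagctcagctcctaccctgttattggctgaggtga
Cdc6: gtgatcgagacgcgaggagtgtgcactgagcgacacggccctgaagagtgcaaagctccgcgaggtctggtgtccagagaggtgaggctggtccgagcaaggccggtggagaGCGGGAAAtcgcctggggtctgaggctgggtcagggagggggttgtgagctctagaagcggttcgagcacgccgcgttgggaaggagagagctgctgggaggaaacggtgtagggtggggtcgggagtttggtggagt
Hells: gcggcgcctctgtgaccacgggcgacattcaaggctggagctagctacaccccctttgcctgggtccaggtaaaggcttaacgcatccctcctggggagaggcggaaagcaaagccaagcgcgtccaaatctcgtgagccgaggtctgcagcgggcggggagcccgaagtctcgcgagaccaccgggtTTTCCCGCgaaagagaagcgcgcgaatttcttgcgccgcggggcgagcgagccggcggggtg
Slbp: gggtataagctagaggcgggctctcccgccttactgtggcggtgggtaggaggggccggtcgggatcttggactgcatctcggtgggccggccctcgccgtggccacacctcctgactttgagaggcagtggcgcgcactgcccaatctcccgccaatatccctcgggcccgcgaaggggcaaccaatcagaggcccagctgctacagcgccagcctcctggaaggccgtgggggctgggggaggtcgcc
Rrm2: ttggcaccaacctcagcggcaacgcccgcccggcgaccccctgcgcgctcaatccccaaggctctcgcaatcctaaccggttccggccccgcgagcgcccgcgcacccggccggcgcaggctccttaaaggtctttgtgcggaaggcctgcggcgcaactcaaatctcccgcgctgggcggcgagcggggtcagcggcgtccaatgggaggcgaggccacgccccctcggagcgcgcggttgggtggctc
The Mcm5 stretch is chr8:75109259-75109508 on the plus strand, and 2 overlapping elements begin 153 and 149 bases before the start. The Mcm6 stretch is chr1:128359706-128359955 on the minus strand, with an overlapping pair at 110 and 106 bases and another element at 47 bases before the start. The Cdc6 stretch is chr11:98907901-98908150 on the plus strand, with an element at 138 bases, and the Hells stretch is chr19:38930740-38930989 on the plus strand, with one at 62 bases. The Slbp stretch is chr5:33652575-33652824 on the minus strand and the Rrm2 stretch chr12:24708004-24708253 on the plus strand. The other members with an element in a window were Mcm3, Mcm7, Clspn, Rfc3, Lig1, Pold1, Gins3, Cdt1 and Pola1.

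After filters 10737 control cells (median 8046 UMIs) and 10589 knockout cells (median 5395 UMIs) remained. The libraries shared 29 called barcodes, 0.258% and 0.267% of each. Cells were clustered without the replication, G1 to S and G2 and mitosis genes, and a cluster took the name of the cell type whose marker genes it carried. A name therefore means a likeness by transcripts, such as Sertoli-like. All markers of a named type were detected in it in both libraries. The Psma7 level of the knockout was below the control's in each of the 8 types with cells enough in both libraries, at 93.7 against 244 CPM in undifferentiated spermatogonia and 86.6 against 237 CPM in Sertoli cells (CPM, UMIs scaled to the same total in every type and library). Whether the counted 3' end lies outside the deleted part is not given, so these values do not check the deletion. Levels below are CPM summed over the cells of a type in a library. Since 3' UMIs are not scaled to transcript length, levels are compared between cells for the same gene or sum, not between genes.

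The summed members were higher in every germ class than in every somatic type taken whole, with its dividing cells pooled in. A dividing stromal cluster, given below, stood above both spermatogonial classes of its library. Undifferentiated spermatogonia, which hold the stem cells, had 2985 CPM in control (interval 2946 to 3023, 521 cells) and 3318 CPM in knockout cells (3265 to 3372, 287 cells). Differentiating spermatogonia, marked by Kit and Sohlh1, had 4140 CPM (4109 to 4171, 1009 cells) and 3761 CPM (3659 to 3865, 106 cells). A control cluster led by Esx1 and Dmrtb1, genes of late spermatogonia, was named only as germ cells and had 5306 CPM (5269 to 5343, 1230 cells). Early meiotic cells, marked by Meiob and Hormad1, had 5264 CPM (5229 to 5298, 973 cells), an interval that overlaps that of the Esx1 and Dmrtb1 cells. The knockout library held 6 cells of the Esx1 and Dmrtb1 cluster and 0 of the early meiotic one (which allows a share of up to 0.0283% of its cells), so these stages are described in the control only.

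Among somatic types, macrophages had 1659 CPM (control) and 1494 CPM (knockout), Leydig cells, the makers of testosterone, 1454 and 1367 CPM, and endothelial cells 1279 and 1697 CPM. Interstitial stromal cells had 1070 and 1306 CPM, peritubular myoid cells, the contractile wall of the tubule, 966 and 803 CPM, and Sertoli cells 933 and 1148 CPM. In the control the order from high to low was macrophages, Leydig, endothelial, stromal, myoid and Sertoli cells. Myoid and Sertoli cells were the neighbours whose counting intervals overlapped, at 941 to 991 CPM and 922 to 944 CPM. The knockout library put endothelial cells first and myoid cells last.

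**Figure D1:**
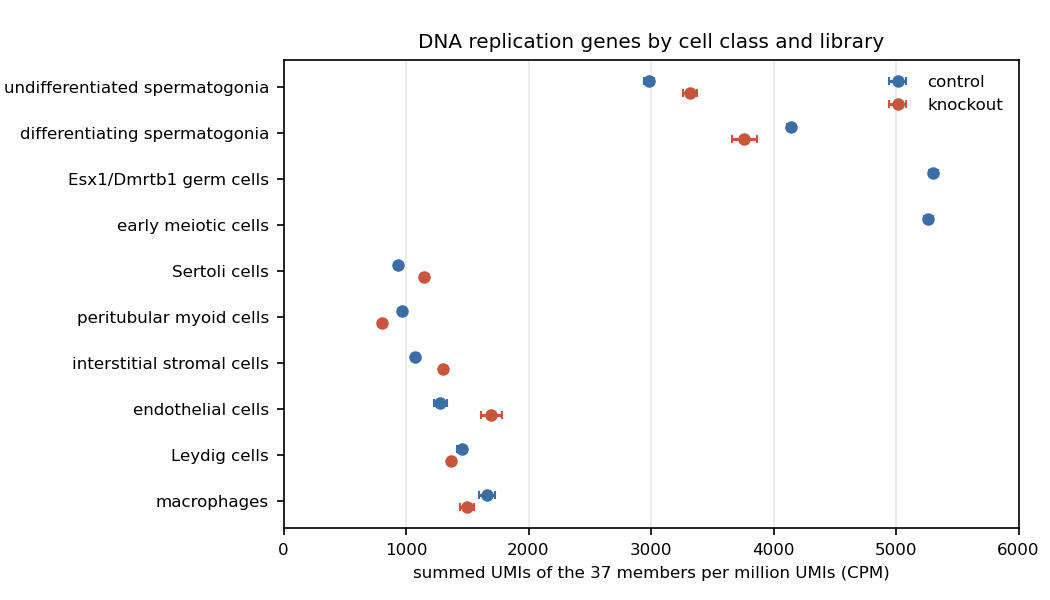
Summed level of the 37 replication genes in CPM (x axis, linear, from 0) in 10 cell classes (y axis), with the control in blue and the knockout library in red; bars are exact 95% counting intervals. Every germ class with at least 50 cells lies at or above 2985 CPM and every somatic class, with its dividing cells pooled in, at or below 1697 CPM.

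The gap between germ classes and whole somatic types held for most members singly. In the control 26 of the 37 were higher in each of the 4 germ classes than in any of the 6 somatic types, and in the knockout library 30 were higher in both spermatogonial classes than in any somatic type. For 24 genes both statements held. These counts were not made over all genes, so the share to set beside them is not known. Hells, a chromatin remodeller needed for DNA methylation, stood at 291 to 793 CPM in control germ classes and at most at 60.8 CPM in a somatic type, the macrophages. Pole, the leading-strand polymerase, stood at 122 CPM or more in germ classes and at most at 20.7 CPM in somatic types. Undifferentiated spermatogonia exceeded Sertoli cells by a median of 4.72-fold over the members in the control, from 0.888-fold for Slbp to 14.5-fold for Cdc6. Slbp and Pola1, the catalytic subunit of the priming polymerase, were the members whose highest somatic level was in Sertoli cells, at 236 and 86.4 CPM. Pcna, with a peak of 216 CPM in germ cells, still reached 171 CPM in control macrophages.

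Within the control, the sum of the members was higher at each step from the stem cell class to the Esx1 and Dmrtb1 cells. At the entry into meiosis single members went both ways, as genes at large did. Differentiating over undifferentiated spermatogonia differed by 0.47 on the log2 scale (interval 0.45 to 0.49), with a median of 0.55 over the members against 0.00 over all 16502 genes measured. At a change of at least 1.5-fold, 17 of 37 members were higher and 2 lower. Of all genes measured 15.7% were higher and 20.1% lower by that rule. The 2 lower genes were Pola1, at 149 and 61.9 CPM (log2 ratio -1.27, -1.39 to -1.15), and Chaf1b, a subunit of the histone chaperone CAF-1, at 40.3 and 20.3 CPM (-0.99, -1.22 to -0.77). The next lowest were Mcm10 (-0.22), Gins3 (-0.05), Pole (0.13) and Prim1 (0.15). At the other end stood Dscc1, a subunit of an alternative clamp loader (0.98, 0.67 to 1.32), Mcm2 (0.85), Cdc6 (0.81), Fen1 (0.76), Clspn (0.76) and Hells (0.73).

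Esx1 and Dmrtb1 cells exceeded differentiating spermatogonia by 0.36 in the sum (0.34 to 0.37), with a median of 0.32 over the members beside -0.25 over all genes. Here 7 members were at least 1.5-fold higher and 1 lower, beside 12.1% and 36.5% of the 16177 genes measured. Rrm2, the limiting subunit of ribonucleotide reductase, went from 32.9 to 108 CPM (log2 ratio 1.71, 1.57 to 1.85) and was the largest difference. Prim1, the primase, followed at 0.89, Dscc1 at 0.75, Mcm5 at 0.66, Tipin at 0.66 and Chaf1a at 0.64. Chaf1b went the other way again, from 20.3 to 6.5 CPM, so that the 2 large CAF-1 subunits moved apart. The other low values were Gins4 (-0.30), Cdt1 (-0.26), Pola1 (-0.23), Mcm7 (-0.23) and Mcm2 (-0.15).

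From Esx1 and Dmrtb1 cells to early meiotic cells the sum hardly differed, at a log2 ratio of -0.01 (-0.03 to 0.00), but the members spread from -2.60 to 1.13. Of the 37, 6 were at least 1.5-fold higher and 12 lower, beside 17.6% and 40.6% of 14523 genes, and the median was -0.22 beside -0.34 over all genes. Both counts are smaller shares than those of all genes, so moving both ways at this step is not particular to the members. The lowest were Cdt1, at 56.8 and 9.4 CPM (-2.60, -2.86 to -2.36), Tyms, which makes thymidylate (-1.73), Mcm2 (-1.46), Dut, which keeps uracil out of DNA (-1.26), Chaf1a (-1.22) and Rfc5 (-1.08). The highest were Gins3, at 42.4 and 92.7 CPM (1.13, 1.00 to 1.27), Pola1 (0.98), Chaf1b (0.81), Mcm5 (0.73), Tipin (0.67) and Rrm2 (0.65). Subunits of one machine thus went in opposite directions: of the helicase ring, Mcm2 and Mcm7 were lower (121 to 44.2 CPM and 136 to 67.3 CPM) while Mcm5 was higher (107 to 176 CPM), and Mcm6 stayed near 0 at 0.02. In the clamp loader Rfc2 was lower, from 139 to 66.0 CPM, and Rfc4 higher, from 132 to 193 CPM.

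Set against undifferentiated spermatogonia, early meiotic cells held 18 of 37 members at least 1.5-fold higher and 6 lower, beside 19.6% and 50.4% of the 15231 genes measured. The sum differed by 0.82 (0.80 to 0.84) and the median member by 0.38, while the median over all genes was -0.60. Rrm2 went from 21.4 to 169 CPM (log2 ratio 2.98, 2.76 to 3.22), Mcm5 from 42.5 to 176 CPM (2.05), Tipin from 177 to 594 CPM (1.75) and Hells from 291 to 793 CPM (1.45). Prim1 (1.57), Cdc45 (1.48) and Rfc4 (1.46) were also among the highest. Slbp went from 209 to 526 CPM (1.33) and Lig1, the ligase of lagging-strand fragments, from 101 to 250 CPM (1.31). Cdt1, at 46.3 CPM in undifferentiated spermatogonia, was the lowest (-2.31), followed by Chaf1b (-1.82), Tyms (-1.12), Mcm7, at 135 and 67.3 CPM, Mcm2 (-0.75) and Mcm10 (-0.61). By stage, 16 members peaked in Esx1 and Dmrtb1 cells, 13 in early meiotic cells, 5 in differentiating and 3 in undifferentiated spermatogonia, the last being Mcm10, Pola1 and Chaf1b. Peak stages were not counted over all genes.

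By role, the parts of the replication machine peaked at different stages of the control. Origin loading (Cdc6, Cdt1 and Mcm10) summed to 121 CPM in undifferentiated, 158 in differentiating and 158 in Esx1 and Dmrtb1 cells and to 66.9 CPM in early meiotic cells. Nucleotide supply (Rrm1, Rrm2, Tyms and Dut) went from 346 to 504 and 725 CPM and then 457 CPM, although Rrm2 itself was highest in early meiotic cells. The helicase genes (Mcm2 to Mcm7, Gins1 to Gins4 and Cdc45) summed to 705, 984, 1112 and 1017 CPM, the clamp and its loaders to 301, 440, 638 and 532 CPM, and Fen1, Lig1 and Rpa2 to 253, 380, 481 and 462 CPM. The remaining sums were highest in early meiotic cells. The polymerase and primase genes summed to 369, 327, 414 and 538 CPM, and the chromatin and histone genes to 605, 926, 1167 and 1393 CPM. The fork genes Clspn and Tipin summed to 285, 420, 611 and 797 CPM. Sums weigh each gene by its UMIs, so Hells and Slbp make up most of the chromatin sum. Tipin, at 594 CPM in early meiotic cells, makes up most of the fork sum there. Clspn alone was highest in Esx1 and Dmrtb1 cells, at 237 CPM beside 203 CPM in early meiotic cells. Of the polymerase genes, Pola1 peaked in undifferentiated (149 CPM) and Pold1 in differentiating spermatogonia (77.9 CPM). Beside the members, the step from Esx1 and Dmrtb1 to early meiotic cells had medians of -0.10 over 41 other replication genes (3 higher, 10 lower by the 1.5-fold rule), -0.56 over 28 other G1 to S genes (3 and 12) and -0.92 over 30 G2 and mitosis genes (2 and 20).

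**Figure D2:**
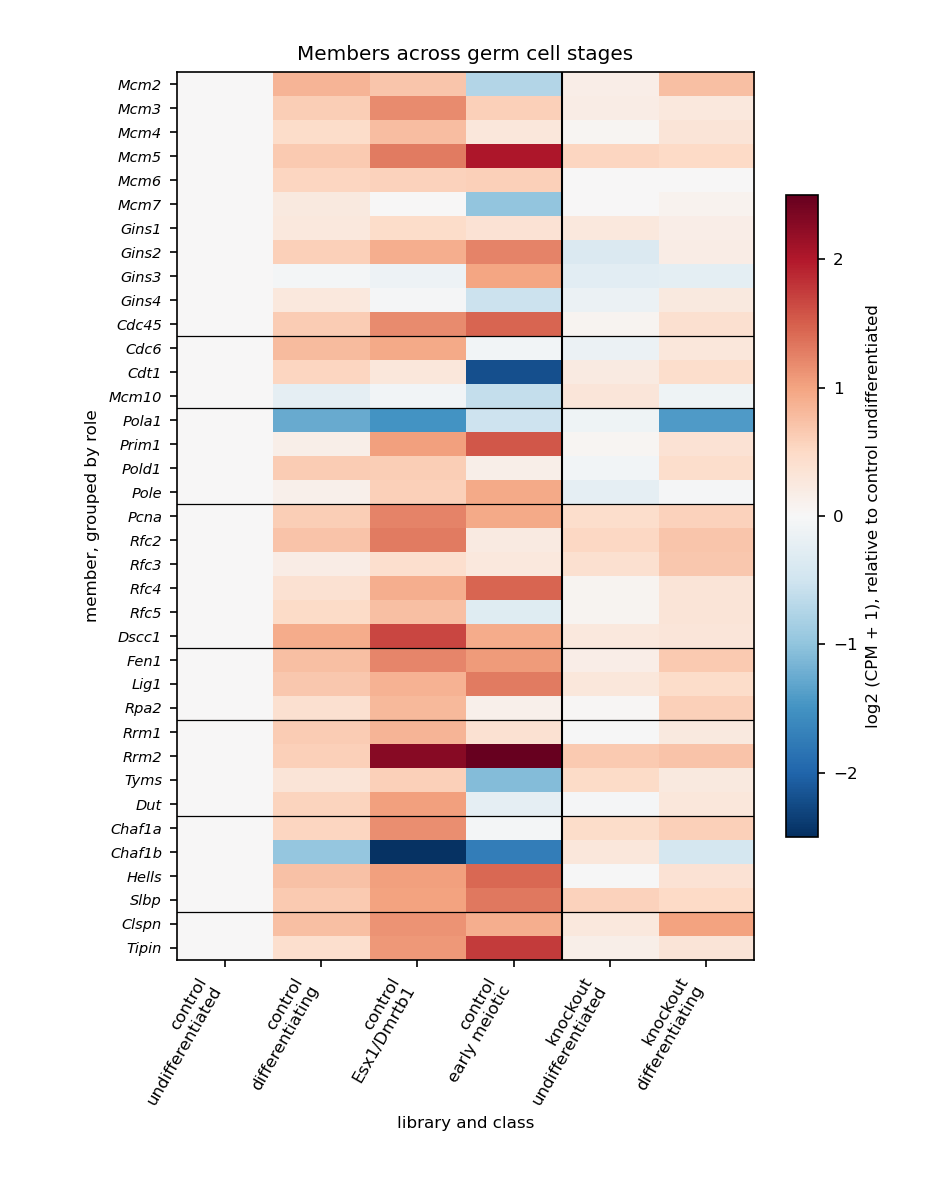
Each member (rows, grouped by role) across control germ stages and the 2 knockout classes with enough cells (columns), as log2 of CPM + 1 relative to control undifferentiated spermatogonia, red for higher and blue for lower, with the colour scale ending at 2.5 either way. Rrm2 and Mcm5 are the reddest and Cdt1 and Chaf1b the bluest cells in the early meiotic column.

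A finer split of the same germ cells, at Leiden resolution 2 and chosen after the first clusters were seen, ordered part of the early meiotic class. The cluster with the most Stra8, the gene that retinoic acid switches on at meiotic entry, had Stra8 at 1304 CPM and the members at 5647 CPM (5594 to 5700, 402 cells). A cluster with Stra8 at 374 CPM and Sycp1, a synaptonemal complex gene, at 2201 CPM had the members at 4825 CPM (4776 to 4875, 375 cells). A small cluster of few UMIs with Sycp1 at 2888 CPM had 3289 CPM (3037 to 3556, 64 cells). Between the first and the second of these, Mcm2 went from 59.1 to 17.7 CPM, Dut from 250 to 53.5 CPM, Tyms from 34.6 to 8.6 CPM and Pold1, the lagging-strand polymerase, from 81.5 to 22.5 CPM. Hells, at 737 and 880 CPM, and Rfc4, at 182 and 219 CPM, were higher in the second. Cdt1 stood at 69.4 and 42.5 CPM in the 2 fine clusters of Esx1 and Dmrtb1 cells, at 11.2 and 3.2 CPM in the next pair, and at 0 UMIs in the small cluster, whose total allows up to 15.6 CPM.

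Counted per cell, nearly every later germ cell carried several members. Each cell was thinned to 2000 UMIs, since the share of cells with a gene depends on depth, and cells below that depth were left out. Among control cells, 99.1% of the Esx1 and Dmrtb1 class (98.3 to 99.5), 98.2% of early meiotic cells (97.1 to 98.9), 97.3% of differentiating (96.0 to 98.2) and 83.6% of undifferentiated spermatogonia (80.1 to 86.7) held at least 3 different members. In the knockout library 87.2% of undifferentiated (82.7 to 90.9, 281 cells) and 93.2% of differentiating spermatogonia (84.9 to 97.8, 74 cells) did. The intervals of the 2 libraries overlapped in both classes. Thinning left out 14 and 6 cells of the undifferentiated class and 129 and 32 of the differentiating class, and before thinning the shares were 99.0% and 99.3%, and 98.6% and 90.6%. At 5 or more members undifferentiated spermatogonia stood at 55.2% (control, 50.8 to 59.6) and 64.8% (knockout, 58.9 to 70.3).

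Somatic shares of thinned cells with at least 3 members lay between 15.2% in knockout myoid cells and 33% in control macrophages. Sertoli cells had 22.3% (21.0 to 23.7, 3581 cells) and 23.3% (22.2 to 24.4, 5966 cells), while unthinned they had 67.7% and 56.8%, at median depths of 5088 and 4104 UMIs. No type in these data lacks the members, so there is no type to give the background of free RNA, and a somatic share is not read as a share of replicating cells. What differed more was the company of other cycle genes. Of Sertoli cells with at least 3 members, 6.25% (control) and 21.7% (knockout) also held at least 3 of 30 G2 and mitosis genes. Among Sertoli cells with fewer members these were 2.59% and 4.11%. A dividing Sertoli cluster, given below, held 269 knockout cells and few control ones, and these shares were not computed without it. In early meiotic cells of the control the share among member-rich cells was 94.3%.

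**Figure D3:**
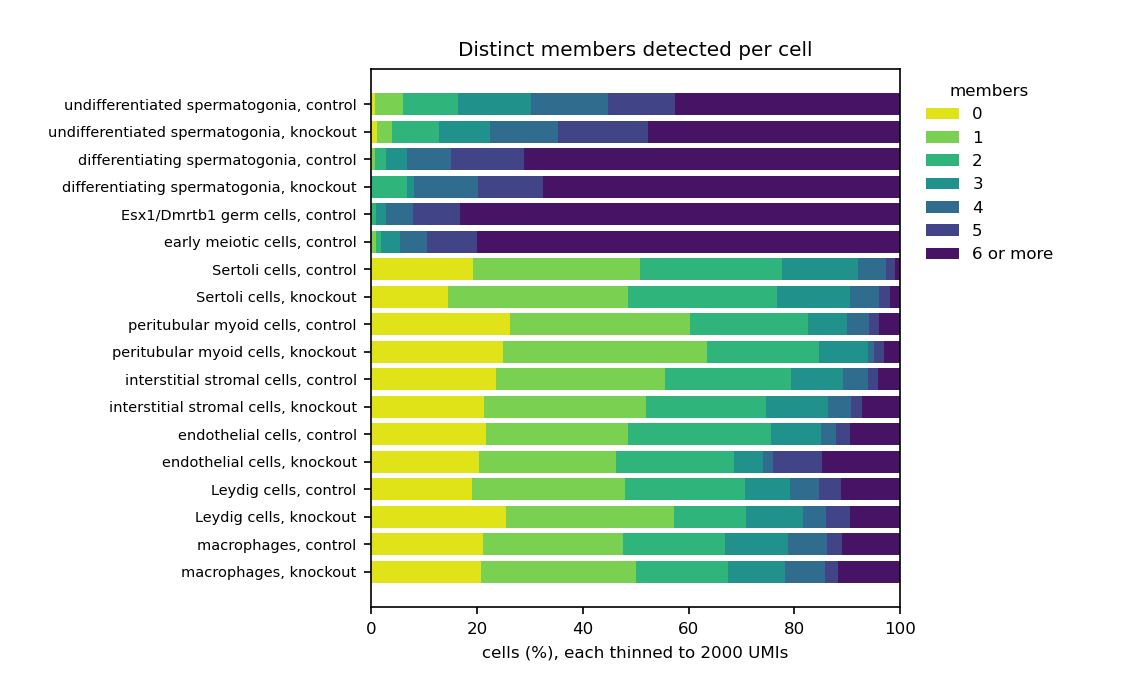
Share of cells (x axis, percent) by the number of different members detected after thinning each cell to 2000 UMIs, from 0 (yellow) to 6 or more (dark purple), for each class and library. Of control Esx1 and Dmrtb1 cells 92.1% held 5 or more, of control Sertoli cells 2.71%.

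Between the libraries, the members of undifferentiated spermatogonia differed little, with more of them on the higher side in the knockout. The sum was 0.15 higher on the log2 scale (0.12 to 0.18), the median member 0.15 and the median of all 15009 genes 0.05. Of the 37, 28 had a ratio above 0. The share of all genes above 0 was not counted, here or in the other classes, and their median was itself above 0 here. By the 1.5-fold rule 1 of 37 members was higher and 0 were lower, beside 14.5% and 8.53% of all genes measured. The higher one was Rrm2, at 21.4 (control) and 34.5 CPM (knockout) (log2 ratio 0.69, 0.36 to 1.01). Slbp stood at 209 and 312 CPM (0.58, 0.47 to 0.68) and Mcm5 at 42.5 and 62.2 CPM (0.55, 0.31 to 0.78). Rfc2 (0.53), Tyms (0.48) and Chaf1a (0.47) followed, and Pcna was at 91 and 123 CPM (0.43). On the low side were the GINS genes Gins2 (-0.37, -0.70 to -0.05), Gins3 (-0.27) and Gins4 (-0.15), with Pole (-0.23), Cdc6 (-0.15) and Pola1 (-0.11). Hells, at 291 and 291 CPM, Dut, at 194 and 190 CPM, and Mcm7, at 135 and 135 CPM, had ratios with intervals of -0.10 to 0.10, -0.15 to 0.09 and -0.14 to 0.15. Tipin was at 177 and 196 CPM.

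Genes around them in the cell cycle gave these values in the same class. Of 42 other replication genes 3 were at least 1.5-fold higher and 1 lower, with a median of 0.09. The ends were Pold4, a small subunit of polymerase delta (1.81), and Tk1, thymidine kinase (0.64), against Dna2, a nuclease (-0.67), and Chtf8 (-0.58). Of 28 other G1 to S genes 1 was higher and 0 lower, with a median of 0.18, from Exo1 (-0.49) and Rbl1 (-0.40) to E2f1 (0.48) and Ccne1, cyclin E1 (1.10). Of 30 G2 and mitosis genes 4 were higher and 0 lower, with a median of 0.33, from Aurkb (-0.15) and Bub1b (-0.10) to Mki67 (0.79) and Ccnb2 (0.82). Of 9 cell cycle inhibitors 2 were higher and 2 lower, namely Cdkn1a, which encodes p21 (2.25), and Cdkn2b (0.89), and Cdkn1b, which encodes p27 (-0.98), and Cdkn2c (-0.61). The summed level of 15 Sertoli markers, all detected, was 292 CPM in control and 540 CPM in knockout cells of this class. With free RNA subtracted at the limit these markers allow, 4.53% and 5.53% of UMIs, the summed ratio was 0.20 and 3 members were at least 1.5-fold higher. The share of all genes was not computed after that subtraction.

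In differentiating spermatogonia the members were on the lower side in the knockout library. Stage markers of the class moved as well, with 11 differentiating markers summing to 1518 and 1217 CPM (control, then knockout), 14 early meiotic ones to 2187 and 1714 CPM and 18 undifferentiated ones to 551 and 610 CPM, and their part in the ratios was not tested. The differentiating and early meiotic lists share Stra8, which carries the Cre knock-in in the knockout only. The sum differed by -0.14 (-0.18 to -0.10), the median member by -0.13 and the median of all 15452 genes by 0.04. Of the 37, 8 had a ratio above 0, 0 were at least 1.5-fold higher and 1 was lower, beside 16.7% and 9.92% of all genes. The lower one was Dscc1, at 25.5 and 16.1 CPM (-0.63, -1.35 to -0.05). Mcm6 was at 128 and 88.6 CPM (-0.52, -0.80 to -0.26), Cdc6 at 51.6 and 35.9 CPM (-0.51), and Hells at 483 and 375 CPM (-0.36, -0.50 to -0.24). Gins2 (-0.41), Rrm1 (-0.38) and Mcm3 (-0.36) were also low. The highest were Chaf1b, at 20.3 and 29.3 CPM (0.55, 0.02 to 1.01), Rfc3 (0.50, 0.15 to 0.82), Clspn (0.26), Prim1 (0.22), Rpa2 (0.20) and Rrm2 (0.14). Slbp, the second highest ratio in undifferentiated spermatogonia, stood here at 329 and 296 CPM (-0.15, -0.30 to -0.01), and whether the 2 classes differ in their response was not tested.

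This class joined 2 clusters that gave different values. The main one, with 780 and 50 cells, had a summed ratio of -0.11 (-0.15 to -0.06), a median member at -0.06 and 0 members past 1.5-fold either way, beside 18.0% of 15388 genes higher and 8.57% lower. The other, with few UMIs (229 and 56 cells, median 1812 UMIs), had 5201 CPM of members in control (5017 to 5391) and 3375 CPM in knockout cells (3097 to 3670), a ratio of -0.62. Its stage genes differed too, with Gfra1, a stem cell receptor, at 3.5 and 55.7 CPM, Stra8 at 686 and 192 CPM, and Esx1 at 155 CPM and 0 UMIs (which allows up to 18.6 CPM), and their part in this ratio was not tested. Stra8 carries the Cre knock-in in the knockout only, so its level need not follow stage alone. It was also lower in the fine cluster of undifferentiated spermatogonia, at 93.2 (control) and 41.8 CPM (knockout). In the cluster of few UMIs 17 of 29 measured members were lower and 0 higher. Beside them stood 21.6% and 10.0% of only 3865 genes that passed the count minimum there. Hells (-1.32, -1.91 to -0.82) and Mcm5 (-1.43, -3.04 to -0.33) were the lowest in this cluster of few UMIs. Sertoli markers in the whole class summed to 273 CPM (control) and 566 CPM (knockout), with all 15 detected. With free RNA subtracted at the limit these markers allow, 4.50% and 7.88% of UMIs, the summed ratio of the class was -0.086 and the median member -0.062.

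Over the differentiating class, the other lists had medians of -0.16 for other replication genes (0 of 41 higher, 4 lower), -0.11 for G1 to S genes (0 and 3 of 28) and 0.15 for G2 and mitosis genes (2 and 0 of 30). The lowest and highest of each were Pola2 (-0.71), Prim2 (-0.64), Chtf8 (0.44) and Tk1 (0.47), then E2f2 (-1.15), E2f8 (-0.92), Usp1 (0.17) and Atad2 (0.19), then Bub1b (-0.54), Plk1 (-0.49), Kif20a (0.63) and Hmmr (0.65). Of 9 inhibitors Cdkn1a (1.44) and Cdkn2b (0.92) were at least 1.5-fold higher and Cdkn2d (-0.80) lower, with Cdkn2c at -0.46. The step from undifferentiated to differentiating spermatogonia was smaller in the knockout library in these values, at 0.18 (0.13 to 0.23) in the sum and 0.21 in the median member, with 1 of 37 higher and 2 lower beside 14.2% and 18.5% of 13093 genes. The steps of the libraries were set side by side only, and their difference was not tested. Pola1 and Chaf1b, low at this step in the control, were low in the knockout library as well, at 138 and 55.7 CPM and at 49.1 and 29.3 CPM.

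**Figure D4:**
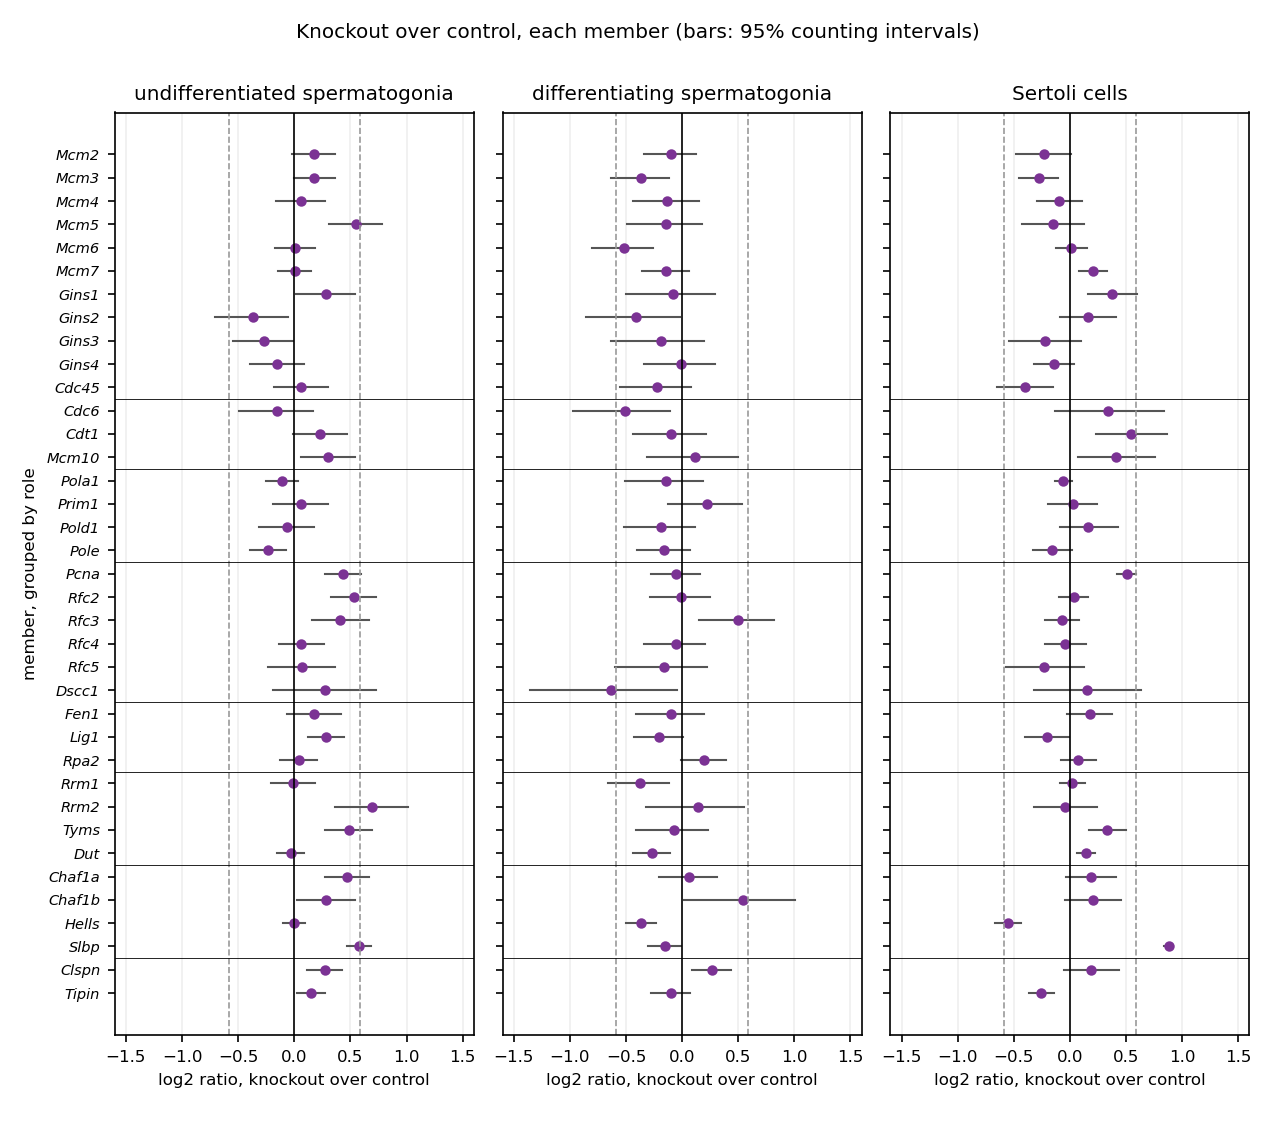
Log2 ratio of knockout over control for each member (rows, grouped by role) in 3 classes, with exact 95% counting intervals; dashed lines mark 1.5-fold and the solid line no difference. Most points lie right of 0 in undifferentiated spermatogonia (28 of 37) and left in differentiating spermatogonia (29 of 37). They lie to both sides in Sertoli cells, where Slbp stands alone at 0.88. The share of all genes on each side of 0 was not counted.

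In Sertoli cells, before any allowance for free RNA, 1 gene carried nearly the whole difference in the sum. Slbp encodes the protein that binds the stem-loop at the end of replication-dependent histone mRNAs and is normally kept for S phase. It stood at 236 CPM (control) and 434 CPM (knockout; log2 ratio 0.88, 0.84 to 0.92), which makes 198 CPM of the 215 CPM by which the sum was higher. The sum itself differed by 0.30 (0.28 to 0.32) with Slbp and by 0.03 (0.01 to 0.06) without it, and the median member was at 0.02 beside 0.03 over all 16858 genes. Slbp was also the 1 member of 37 past 1.5-fold, with 0 lower, beside 18.3% and 8.91% of all genes. Its share of the member UMIs was 25.3% in control and 37.8% in knockout Sertoli cells, against 7.01% and 9.41% in undifferentiated spermatogonia.

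Slbp differed between Sertoli clusters more than the sum of the other members did, and Pcna was high in the same clusters. Most control Sertoli cells fell in clusters 5, 6 and 7 and most knockout ones in clusters 0, 1 and 3, so the libraries are compared over different clusters. Slbp was at 694 CPM in cluster 0 (677 to 711, 1748 knockout cells), 461 in knockout cluster 1, 534 in knockout cluster 3 and 408 in cluster 6 of the control (394 to 422, 1201 cells). The few control cells of clusters 1 and 3 had Slbp at 456 and 466 CPM with the other members at 845 and 763 CPM. Slbp was at 138 CPM in cluster 5 of the control and 168 CPM in cluster 7. Knockout cells of clusters 5, 6 and 7 had Slbp at 193, 549 (60 cells) and 218 CPM. In cluster 22 it was at 141 CPM in control and 139 CPM in knockout cells. Pcna stood between 88.7 and 131 CPM in clusters 0, 1, 3 and 6 wherever a library had at least 50 cells, and between 30.2 and 51.9 CPM in clusters 5, 7 and 13. Clusters 17 and 22 lay between, with Pcna from 55.3 to 82.2 CPM although Slbp was only at 139 to 159 CPM. The other 36 members summed to 639 CPM in cluster 0, 718 in control cluster 6 and 569 in control cluster 5. The dividing Sertoli cluster 19, led by histone genes, held 5 control and 269 knockout cells. Its knockout cells had Slbp at 647 CPM with 1784 CPM of the other members and 6933 CPM of the G2 and mitosis genes, which summed to 376 CPM in cluster 0. Without cluster 19 the sum differed by 0.22 (0.20 to 0.24), the median member by -0.11 and 3 members (Hells, Cdc45 and Clspn) were at least 1.5-fold lower, beside 9.04% of all genes, with Slbp alone higher beside 17.6%.

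**Figure D5:**
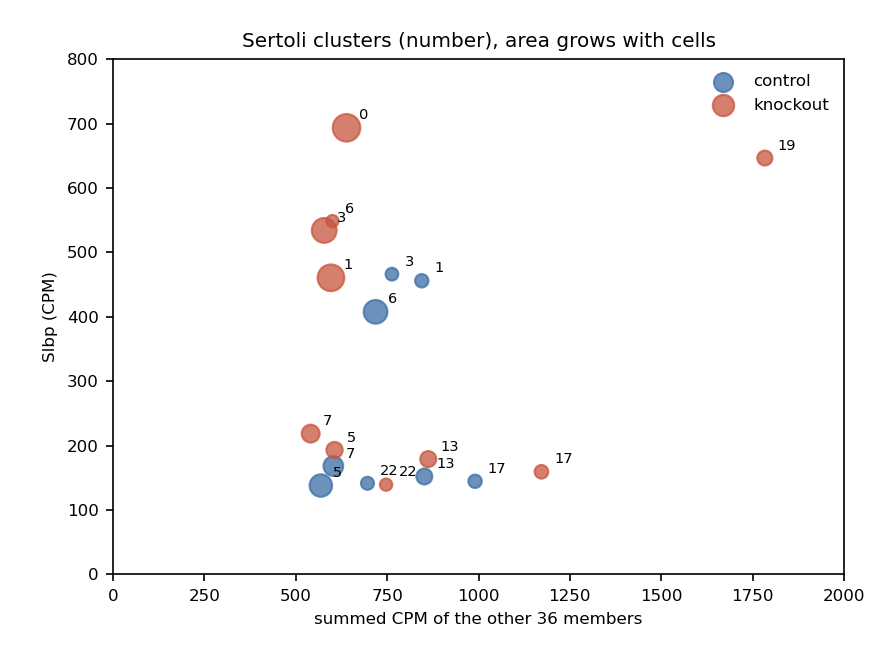
Slbp (y axis, CPM) against the summed CPM of the other 36 members (x axis) in each Sertoli cluster and library with at least 50 cells, with the cluster number beside each point and a larger area for more cells. Clusters 0, 1, 3 and 6 have Slbp at 408 CPM or more with the other members below 845 CPM, while cluster 19 is high in both.

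The other Sertoli members went both ways. Pcna was at 60.1 and 85.4 CPM (0.51, 0.42 to 0.59), Cdt1 at 4.3 and 6.3 CPM (0.54, 0.23 to 0.87), Mcm10 at 0.41, Gins1 at 0.38 and Cdc6 at 0.34 (-0.13 to 0.83). Lower in the knockout library were Hells, at 42.1 and 28.7 CPM (-0.55, -0.67 to -0.43), Cdc45 (-0.40, -0.65 to -0.15), Mcm3 (-0.28), Tipin (-0.25), Mcm2 (-0.23) and Rfc5 (-0.23). Pola1, at 86.4 and 82.8 CPM, and Dut, at 67.3 and 74.3 CPM, had ratios of -0.06 and 0.14. Of 30 G2 and mitosis genes 27 were at least 1.5-fold higher and 0 lower, with a median of 1.35 (20 and 1, with a median of 0.72, without cluster 19), from Bub1 (-0.18) and Kif23 (0.38) to Hmmr (2.22) and Ube2c (2.24). Of 42 other replication genes 6 were higher, 0 lower and the median was -0.06, between Mcmbp (-0.44) and Prim2 (-0.43) and Rnaseh2c (0.78) and Rnaseh2a (0.96). Of 28 G1 to S genes 8 were higher and 0 lower (5 and 2 without cluster 19), from Cdca7 (-0.54) and Exo1 (-0.44) to E2f2 (1.85) and E2f8 (2.24). Of 9 inhibitors 2 were higher, Cdkn2c (1.30) and Cdkn1c (0.72), and 3 lower, with Cdkn2a (-2.76) and Cdkn2b (-1.23) the lowest.

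Free RNA from germ cells moved with this comparison. Barcodes of 10 to 100 UMIs, too few for a cell, held the members at 3138 CPM (control) and 1493 CPM (knockout). The 6 germ cell markers, all detected in both, summed to 161 CPM in control and 15.2 CPM in knockout Sertoli cells. Taking the median marker as free RNA throughout (6 markers in the control, 5 in the knockout) gives upper limits of 8.15% and 8.57% of Sertoli UMIs, or 256 and 128 CPM of members, which is 27.4% and 11.1% of their level. With that amount subtracted, a value chosen after the data were seen, Sertoli members stood at 737 and 1116 CPM, the sum differed by 0.60, the median member by 0.59, and 19 of 37 members were at least 1.5-fold higher. The median and the share over all genes were not computed after this subtraction. Before it, 18.3% of all genes were at least 1.5-fold higher. The member ratios of Sertoli cells thus depend on the free RNA allowed for, and how much of it these cells truly held was not measured.

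The other somatic types did not share a direction. In interstitial stromal cells 35 of 37 members were above 0, with a summed ratio of 0.29 (0.26 to 0.31) and a median of 0.34 beside -0.01 over all genes. Of these, 4 were at least 1.5-fold higher and 0 lower, beside 6.11% and 3.16% of 15389 genes, and they were Mcm10 (0.71), Mcm5, at 12.6 and 19.6 CPM (0.64, 0.41 to 0.89), Gins2 (0.64) and Gins1 (0.60). Dscc1 (0.58) and Pole (0.57) followed, and Tipin (-0.17) and Hells (-0.09) were the 2 below 0, ahead of Dut (0.02), Gins3 (0.09), Mcm2 (0.12) and Rfc4 (0.12). A dividing cluster of 32 control and 89 knockout cells, with members at 4324 and 4443 CPM, belonged to this type. Without it the sum differed by 0.17 (0.14 to 0.20), the median by 0.25, and 0 members passed 1.5-fold either way, beside 5.85% and 3.24% of all genes.

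Endothelial cells, 88 and 64, had a summed ratio of 0.41 (0.31 to 0.50) and a median of 0.53 over 32 members, the other five, Mcm10, Gins1, Gins3, Cdc6 and Dscc1, having too few counts. Of these 13 were at least 1.5-fold higher and 0 lower, beside 8.63% and 5.62% of 9321 genes, led by Lig1, at 32.2 and 71.2 CPM (1.14, 0.61 to 1.68), Chaf1b (1.00), Mcm2 (0.86), Mcm4 (0.78), Mcm7 (0.78) and Pole (0.77). The lowest were Pold1 (-0.39), Hells (-0.35), Tipin (-0.07), Mcm5 (0.02), Mcm3 (0.07) and Slbp (0.15). Of 30 G2 and mitosis genes 16 were higher and 0 lower there. Germ markers summed to 116 CPM in control cells, and 5 of the 6 were at 0 UMIs in knockout cells. Markers of other cells were higher in the knockout library, with 6 red blood cell markers at 347 and 1955 CPM (1 at 0 in each) and 8 stromal markers, all detected, at 188 and 683 CPM, and their part in the ratios was not tested.

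Peritubular myoid cells leaned the other way, with a summed ratio of -0.27 (-0.32 to -0.21), a median of -0.32 and 8 members at least 1.5-fold lower, 0 higher, beside 6.59% and 5.70% of 13148 genes. The lowest were Pole, at 11.4 and 4.9 CPM (-1.20, -1.85 to -0.59), Cdc6 (-0.87), Cdc45 (-0.86), Gins2 (-0.79), Clspn (-0.76) and Dscc1 (-0.75), and the highest Mcm10 (0.47), Mcm4 (0.22), Gins4 (0.19), Rfc2 (0.10), Lig1 (0.06) and Rfc3 (0.04). Of the G2 and mitosis genes 9 of 30 were lower and 1 higher. Macrophages had a summed ratio of -0.15 (-0.23 to -0.07) and a median of -0.22 over 35 members, all but Gins3 and Dscc1, with 4 higher and 6 lower beside 6.88% and 8.08% of 9954 genes. Hells, at 60.8 and 20.4 CPM (-1.56, -2.18 to -0.99), and Chaf1a (-1.35) were the lowest, then Cdc45 (-0.99), Gins1 (-0.86), Cdc6 (-0.72) and Mcm10 (-0.70), while Gins2 (0.71), Tyms (0.70), Chaf1b (0.66), Rrm2 (0.63), Mcm6 (0.28) and Mcm7 (0.21) were the highest. Leydig cells had a summed ratio of -0.09 (-0.13 to -0.05) and a median of -0.20, with 2 higher and 2 lower beside 5.49% and 3.97% of 12721 genes. Those were Rrm2, at 30.2 and 52.2 CPM (0.79, 0.51 to 1.07), and Mcm10 (0.67), against Dscc1 (-0.95) and Tipin (-0.62). After them came Pold1 (-0.57), Cdt1 (-0.51), Mcm2 (-0.49) and Mcm7 (-0.46) on the low side and Tyms (0.43), Gins4 (0.39), Rrm1 (0.31) and Chaf1b (0.28) on the high side. Germ markers were lower in the knockout library in each of these types, at 106 against 11.2 CPM in myoid cells, 230 against 19.3 in macrophages, 57.9 against 4.8 in Leydig cells (1 of 6 at 0 there) and 75.4 against 8.5 in stromal cells. With free RNA subtracted at the limit these markers allow, the summed ratio turned in macrophages, to 0.028 (1462 and 1494 CPM). It was -0.039 in Leydig cells, -0.19 in myoid cells and 0.40 in stromal cells. In endothelial cells it was 0.54, but with limits of 5.73% in control and 0% in knockout cells, where the median marker had 0 UMIs. Only the control was thus changed there, and 0 UMIs in 64 cells do not show that free RNA was absent. The sign also turned in Leydig cells with at most 10% mitochondrial UMIs (0.025) and at Leiden resolution 2 (0.13), and in stromal cells with doublets kept (-0.081).

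Over whole libraries the members stood at 2799 CPM (control) and 1349 CPM (knockout; log2 ratio -1.05, -1.06 to -1.04), a 2.08-fold difference larger than in any class above. Germ cells were 34.8% of control cells and held 80.5% of its member UMIs. They were 3.77% of knockout cells and held 16.3%. Sertoli cells held 8.38% (control) and 36.7% (knockout) of the member UMIs.

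Across 18 profiles, 1 per class and library with at least 50 cells, genes outside the list whose log2 (CPM + 1) was among the most like that of the summed members were Plk4, a kinase that starts centriole duplication (Pearson correlation 0.985), Cenps (0.981), Fanci (0.978), Oip5 (0.976), Ticrr, which fires origins (0.974), Cenph (0.972), Dnajc2 (0.972), Snrnp40 (0.972) and Ncapg2, a condensin subunit (0.969). This is a ranking of 12900 genes that reached 20 CPM, and the profiles share libraries, depth and the split of germ from somatic cells. Members, which form the sum themselves, ranged from 0.986 for Clspn to 0.364 for Pola1, with a median of 0.930.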

How the data were processed

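Testis cells of 1 control and 1 knockout library were analysed. The deposited values are raw counts of UMIs per gene and barcode, written by Cell Ranger 7.1.0 (per the file headers) against mm10 (per the labels); cells had not been called. The libraries list 1707157 and 1477364 barcodes with 146528736 and 112746953 UMIs. Cells had at least 1000 UMIs, 500 genes and at most 20% mitochondrial UMIs (11232 and 10864). Scrublet (scanpy 1.11.5) marked 0 knockout cells by its own threshold, so, after seeing the data, the control's was used for both, which removed 495 (4.41%) and 275 (2.53%). Clustering used 2000 variable genes, 30 components, 15 neighbours and Leiden resolution 1 (leidenalg 0.10.2), without replication, G1 to S or G2 and mitosis genes. A class needed at least 3 markers 1.5-fold above other cells, in 20% of its cells; naming details were settled after seeing the data. Unnamed cells (70 and 199), pericytes and rete cells, under 50 per library, were left out. Log2 ratios added 0.5 to counts of genes with at least 30 UMIs; intervals are exact (scipy 1.17.1). On counts simulated with counting error only, they held the truth for 95.9% of unchanged genes in undifferentiated spermatogonia (15009 genes simulated). That checks the calculation and not the spread between cells, clusters or animals, which the simulation lacks. All 37 members passed the minimum except in endothelial cells (32), macrophages (35) and the cluster of few UMIs (29). Text names the 6 highest and 6 lowest members per comparison, the 2 at each end of other lists, and genes of high level or role. The members and lists were chosen with earlier results of these data known. A gene of the likeness ranking is not reported here.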

Additional observations from a re-analysis of the deposited data

Results flagged for a closer look

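The summed ratio of the members, knockout over control, differed in sign between cell classes, and the difference was not tested since each genotype has 1 library. Among germ cells it was 0.15 in undifferentiated and -0.14 in differentiating spermatogonia. Among somatic types it was 0.30 in Sertoli cells, 0.29 in interstitial stromal cells and 0.41 in endothelial cells, against -0.089 in Leydig cells, -0.27 in peritubular myoid cells and -0.15 in macrophages. The macrophage value turned to 0.028 with free RNA subtracted at the measured limit, the Leydig value to 0.025 with at most 10% mitochondrial UMIs and 0.13 at Leiden resolution 2, and the stromal value to -0.081 with doublets kept.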

How the results depend on the processing

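No paired analysis was possible because each genotype has 1 library and no replicate number. Of 167 values of the main comparisons recomputed under another setting, 116 moved by less than their counting interval or 1.5 times and 51 moved more. A change of sign was counted only where the main value was at least 1.5-fold, which most were not, and never for counts. The 0 changes found by that rule therefore say little. Signs did turn for the Sertoli median and for the shares of cells in Sertoli cells and differentiating spermatogonia, as given below. Values below are knockout over control; those for subtraction at the measured free RNA limit, without Slbp and without single clusters were chosen after seeing the data.

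In undifferentiated spermatogonia the summed ratio (0.15) was 0.20 with 5% free RNA subtracted and 0.20 at the measured limit, 0.10 centred on the median gene and 0.12 without Slbp. The count of members at least 1.5-fold higher (1) was 2 with cells of at least 2000 UMIs, 4 with at most 10% mitochondrial UMIs, 2 at resolution 2, and 3 with either free RNA setting. The share of cells differed by 9.54 points at 5 or more members. In differentiating spermatogonia the sum (-0.14) was -0.23 at resolution 2, -0.18 centred and -0.086 at the measured free RNA limit. The median (-0.13) was -0.045 with doublets kept, -0.23 at resolution 2, -0.18 centred, -0.062 at the free RNA limit and -0.062 without the cluster of few UMIs. Members lower were 2 with at most 10% mitochondrial UMIs, 2 with cycle genes in the clustering, 3 at resolution 2 and 0 without that cluster; 1 was higher at resolution 2 and at the free RNA limit. The share differed by -15.6 points at 1000 UMIs and 0.80 points at 2 or more members, beside -4.03.

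In Sertoli cells the sum (0.30) was 0.35 with the stricter depth, 0.36 with at most 10% mitochondrial UMIs, 0.36 with doublets kept, 0.47 with 5% free RNA subtracted, 0.27 centred, 0.60 at the free RNA limit, 0.035 without Slbp and 0.22 without cluster 19. The median (0.02) was 0.17 with doublets kept, 0.27 and 0.59 with the free RNA settings and -0.11 without cluster 19. Members higher were 6 with at most 10% mitochondrial UMIs, 2 with doublets kept, and 8 and 19 with free RNA subtracted; 3 were lower without cluster 19. The share differed by -1.38 points without cluster 19 and 3.37 at 5000 UMIs, beside 0.94. The early meiotic over undifferentiated sum (0.82) was 0.77, 0.78 and 0.80 with stricter depth, stricter mitochondrial limit and doublets kept, 0.85 at the free RNA limit and 0.77 without Slbp. The number of other somatic types with the sum above 0 (2) was 1 with doublets kept. Signs of the sum turned in macrophages (-0.15 to 0.028 at the free RNA limit), Leydig cells (-0.089 to 0.025 with at most 10% mitochondrial UMIs and 0.13 at resolution 2) and stromal cells (0.29 to -0.081 with doublets kept); these differences are under 1.5-fold. Clustering each library alone left no spermatogonial class in the knockout library and gave no value. Apart from leaving out single clusters, the share of all genes past 1.5-fold was not computed for these settings. The cause of these shifts was not tested beyond what each setting removes.

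With 1 library per genotype the spread between animals is unknown. Depth limits the differentiating class (106 knockout cells) and endothelial cells (64 knockout cells, 32 members measured).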
